A study of Mus musculus with 90 samples.

Results

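The genes described here act when a sperm fuses with the egg and when the fertilised egg starts to develop. They are Cd9, Cd81, Izumo1r (also named Folr4), Astl, Itpr1, Trpm7 and Cacna1h, 7 genes chosen by name among the 24422 genes of the deposited count table. All 7 were among the 16511 genes with enough counts to be tested. The study asked what the loss of maternal Plag1, a zinc finger transcription factor, does to mouse oocytes and early embryos. WT and Plag1 knockout (KO) females of the CD-1 strain, superovulated with 5 IU of pregnant mare serum and 5 IU of hCG, gave single MII oocytes, from unmated females by the labels (21 to 23 h after hCG), or, mated with WT studs, embryos cultured to the 2-cell (2c, 45 to 47 h after fertilisation) or 8-cell (8c, 71 to 73 h) stage. The KO groups at 2c and 8c are therefore matPlag1KO embryos, which lack the maternal allele and carry a WT paternal one. RNA of all groups was sequenced at its 5′ end, with ERCC spike-ins added and a molecular identifier on each cDNA, in 2 pools, libA and libB, called plates A and B here, whose positions are called wells. The study elsewhere calls the MII samples zygotes. Of 12 sperm-side genes measured, 5 had enough counts to be tested. The most abundant over all libraries was the protamine Prm2, with 111 counts in the WT and 174 in the KO group at MII. After it came 4930451I11Rik (41 and 71) and Adam2 (1 and 0). MII here means the label, and fertilisation was not tested.

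Fusion begins when IZUMO1 on the sperm binds JUNO, the product of Izumo1r, on the egg membrane, and it needs the egg tetraspanin CD9, with CD81 as a relative. The fused sperm sets off waves of calcium in the egg, released through the inositol trisphosphate receptor ITPR1 and refilled through channels such as TRPM7 and the T-type channel encoded by Cacna1h. Calcium drives the release of cortical granules, whose protease ovastacin, encoded by Astl, cleaves the zona pellucida so that further sperm no longer bind.

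The table held 90 libraries, of which 78 had enough counts to be kept. WT MII oocytes gave 16 libraries with 222357 to 2502421 gene counts (median 395023), and KO oocytes gave 14 with 438233 to 1772844 (median 649899). At 2c, 11 WT libraries held 116914 to 194287 counts (median 148473) and 11 matPlag1KO libraries 92475 to 256529 (median 163626). At 8c, 15 WT libraries held 264386 to 696870 counts (median 564009) and 11 matPlag1KO libraries 214053 to 664771 (median 393914). The 2c libraries were thus the shallowest, so a gene of a few CPM (counts scaled to one common library size) is hardest to see there. Whole cells or embryos were lysed, so fewer cells and less RNA per cell cannot be told apart.

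Plag1 itself was compared first. At MII it had 326 counts over the 16 WT libraries, all of them with at least 1, and 4 counts over the KO libraries, of which 3 held any. The WT level was 88.9-fold higher (counting interval at 95% confidence 34.4 to 328), and edgeR gave a log2 fold change of -5.64 (adjusted p = 1.48e-10), with 14 of 14 KO libraries below the WT median. The oocyte labels and the targeted gene go together. At 2c the order was the other way round, with 1 count in the WT group and 91 in the matPlag1KO group, a ratio of 77.8 (13.6 to 3105), log2 5.59, adjusted p = 0.000127, with 9 of 11 libraries above the WT median of 0. The paternal allele of these embryos is WT, and the authors read this RNA as coming from it. From the counts alone, RNA from that allele and exchanged labels cannot be told apart. The study's time-lapse imaging, of other embryos, found that matPlag1KO embryos stayed longer at 2c. From these libraries, with the same labels, it proposes that the 2c matPlag1KO program lagged behind WT. An exchange of labels was not tested. Every direction given below for 2c holds only as far as the 2c labels do. At 8c the groups had 10 and 6 counts, and the level gives no check of the labels.

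Markers of the cells were read in the same libraries. The 7 oocyte markers summed to a mean of 10491 CPM in WT and 14375 in KO oocytes, then 3463 and 4875 in 2c embryos and 101 and 125 in 8c embryos, all 7 with counts and Oosp1 the most abundant. The 2c markers summed to 351 CPM in WT and 625 in matPlag1KO embryos at 2c against 3.38 and 1.44 at MII and 6.08 and 12 at 8c, with Zfp352 highest and Tcstv1 and Tcstv3 at 0 throughout, so 5 of 7 held counts. The 8 markers of the 8c stage, led by Pou5f1, summed to 2104 and 1219 CPM at 8c, 381 and 479 at 2c, and 786 and 724 at MII. Stage labels and stage markers therefore go together. Of 15 cumulus and granulosa cell markers 14 held counts, summing to 143 and 120.1 CPM at MII, 369 and 194 at 2c, and 733 and 529 at 8c. Most of this was Nr5a2 (119.9 CPM of the 143 in WT and 96.7 of the 120.1 in KO oocytes), which embryos also express, while Ptx3 was at 0 everywhere and Amh and Foxl2 were at 0 in both oocyte groups. The 5 oviduct markers, led by Ovgp1, reached at most a mean of 2.60 CPM, with Foxj1 at 0 in 5 of the 6 groups. The 6 blood markers reached at most 2.99 CPM, in WT 2c embryos, where only Hba-a1 and Hba-a2 held counts, with Alas2 the most abundant over all libraries and Hbb-b1, Hbb-b2 and Ptprc at 0 in all groups.

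Izumo1r encodes JUNO, the egg receptor for the sperm, and is encoded on chromosome 9, minus strand, 14690258 to 14708395 in mm9, the build of the count table. In oocytes its lowest, median and highest levels were 234, 1214 and 4564 CPM in WT and 442, 1264 and 4344 CPM in KO. At 2c they were 10.4, 77.8 and 304 CPM in WT and 64.6, 169 and 454 CPM in matPlag1KO embryos. At 8c they were 0, 7.16 and 466 CPM in WT and 0, 5.04 and 791 CPM in matPlag1KO embryos. Both oocyte groups were thus high and overlapped fully, 2c embryos were lower, and most 8c embryos were near 0 with a few far above the rest. In order of mean level KO oocytes (1488 ± 978 CPM, SD, n = 14) and WT oocytes (1347 ± 1043, n = 16) came first, then 2c matPlag1KO, 8c matPlag1KO, 2c WT and 8c WT. Of these neighbours, only WT oocytes and 2c matPlag1KO embryos differed by more than the larger SD.

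Between MII and 2c Izumo1r fell in both genotypes when counts were scaled to spike-in RNA. The edgeR log2 fold change was -5.41 ± 0.91 (SE) in WT (adjusted p = 3.1e-07) and -4.77 ± 0.88 in KO (adjusted p = 2.67e-06), with 11 of 11 embryos below the oocyte median in each. On this scale the median of all genes tested moved by -1.46 and -1.42, and it moved by 0.53 and 0.30 from 2c to 8c and by -0.67 and -0.95 from MII to 8c (WT and KO). With TMM factors in place of spike-in RNA those medians were -0.03 and 0.14, -0.12 and -0.31, and 0 and 0. After 2c the mean of Izumo1r did not move past the test, at 0.28 ± 0.74 in WT (adjusted p = 0.793, 13 of 15 embryos below the 2c median) and 0.35 ± 0.78 in KO (adjusted p = 0.734, 9 of 11 below).

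The 8c means rest on 4 libraries. Well E3 held a WT embryo with 466 CPM on plate A and another with 446 CPM on plate B, and well F5 held matPlag1KO embryos with 791 and 640 CPM, while no other 8c library passed 66.1 CPM. Without these 4 libraries, an alternative chosen after seeing the data, the mean was 10.2 ± 10.9 CPM in WT (SD, n = 13) and 12.2 ± 21.2 CPM in matPlag1KO embryos (n = 9). The log2 fold change from 2c to 8c was then -2.32 in WT and -3.71 in KO, given without a test because the libraries were left out for their Izumo1r level. With all libraries and TMM factors it was -0.60 and -0.58, so the direction of this step depends on these wells and on the scaling.

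**Figure D1:**
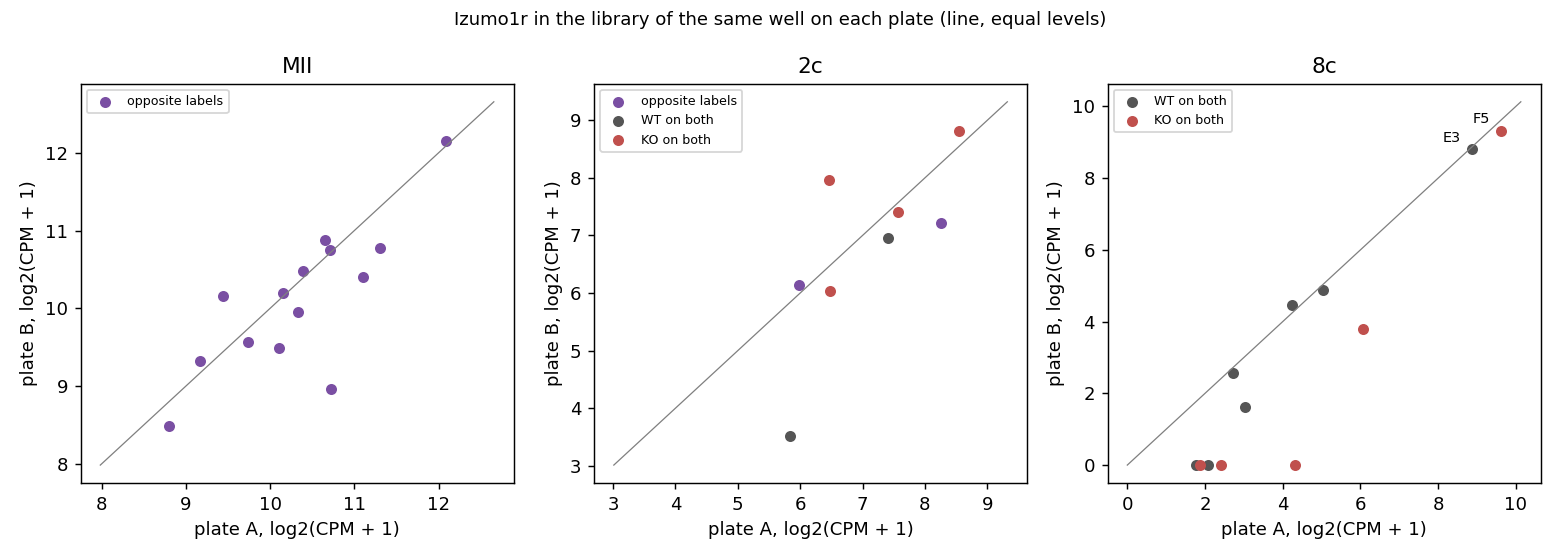
Izumo1r level, as log2 of CPM plus 1, in the library of the same well on plate A (horizontal axis) and plate B (vertical axis), for each well kept on both plates; colours give the genotype labels and the line marks equal levels. At 8c wells E3 and F5 are high on both plates.

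Libraries of the same well on the 2 plates were set side by side, since each held its own oocyte or embryo. Each Pearson r in this paragraph is of log2 levels less the mean of their group. At MII all 14 such wells held opposite genotypes on the 2 plates. Yet Izumo1r on plate A followed Izumo1r on plate B (r 0.80 over 14 wells, 0.71 without the highest well). The median r over 7143 genes was 0.58, and 16.9% of them had an r as high as that of Izumo1r. At 2c r was 0.48 over 8 wells, 2 of them with opposite genotypes, against a median of 0.17 over 7892 genes. At 8c it was 0.93 over 12 wells (0.89 without the highest), against a median of 0.29, and 0.363% of 6881 genes were as high. The points share the well position, and the reason for the likeness was not tested. All 12 of the 8c wells held the same genotype on both plates. No 8c well thus sets the genotypes side by side, and likeness within wells cannot be taken out of the 8c genotype difference.

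Cd9 encodes the tetraspanin that the egg membrane needs for fusion, and spans 125410284 to 125444773 on the minus strand of chromosome 6. Its lowest, median and highest levels in oocytes were 0, 11.1 and 55.7 CPM in WT and 8.46, 21.4 and 84.7 CPM in KO. At 2c they were 39.1, 113 and 305 CPM in WT and 22.6, 73.1 and 120.5 CPM in matPlag1KO embryos. At 8c they were 830.5, 1132 and 1649 CPM in WT and 559, 959 and 1548 CPM in matPlag1KO embryos. Every 8c library lay above every 2c library, while the genotypes overlapped at each stage. In the order of the means, 8c WT (1172 ± 224 CPM, n = 15) and 8c matPlag1KO (997 ± 326, n = 11) did not differ beyond their spread. They were followed by 2c WT (130.2 ± 75.4, n = 11), 2c matPlag1KO (69.4 ± 33.5, n = 11), KO oocytes (31.2 ± 24.3, n = 14) and WT oocytes (14.1 ± 12.7, n = 16). On this scale the steps from 8c to 2c and from 2c matPlag1KO to KO oocytes were larger than the larger SD, and the others were not.

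Scaled to spike-in RNA, Cd9 rose from 2c to 8c by a log2 fold change of 3.97 ± 0.44 in WT (adjusted p = 1.13e-12, 15 of 15 embryos above the 2c median) and 4.62 ± 0.47 in KO (adjusted p = 2.92e-14, 11 of 11). From MII to 2c it rose in WT by 1.69 ± 0.38 (adjusted p = 8.55e-05, 9 of 11 above). In plate A alone that step was 0.64 and did not pass (adjusted p = 0.344, range 1.45e-14 to 0.344). In KO it was -0.71 ± 0.40 (adjusted p = 0.106, 5 of 11 below the KO oocyte median). With TMM factors the KO step became 1.13 and passed (adjusted p = 0.00249, range 0.00249 to 0.456), and in plate B it was 0.41, so its direction depends on the scaling and the plate. From MII to 8c Cd9 rose on the spike-in scale in both, by 5.66 in WT (adjusted p = 1.15e-22, 15 of 15) and 3.91 in KO (adjusted p = 2.23e-14, 11 of 11).

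Between genotypes Cd9 did not pass at any stage in the edgeR fit over all groups, and it did under some alternatives. In oocytes the KO level was higher by a log2 fold change of 1.11 ± 0.31 (adjusted p = 0.0538, range over the alternatives 0.0141 to 0.767), with 11 of 14 KO libraries above the WT median. At 2c the embryos labelled matPlag1KO were lower, at -0.92 ± 0.35 (adjusted p = 0.0965, range 0.0395 to 1), with 10 of 11 below the WT median. With the well as a block over the 8 wells kept on both plates, chosen after seeing the data, the 2c value was -0.18. Only 2 of these wells held both genotypes, each with WT on plate A, so few embryos carry that value. In D4 the WT embryo had 40.2 CPM and the matPlag1KO embryo 104, and in D5 they had 197 and 53.9. At 8c the difference was -0.23 ± 0.30 (adjusted p = 0.799, 7 of 11 below). The plates did not give the same sizes. In oocytes the log2 fold change was 1.48 on plate A (adjusted p = 0.0856), where WT oocytes had a median of 14.4 CPM and KO oocytes of 44.9. On plate B it was 0.35 (adjusted p = 0.767), with medians of 9.03 and 12.6 CPM. At 2c it was -0.40 on plate A (adjusted p = 0.872) and -1.33 on plate B (adjusted p = 0.0395).

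The change of the Cd9 genotype difference from MII to 2c was tested directly. It was -2.03 ± 0.46 (adjusted p = 0.005, range 0.000517 to 0.278), past the threshold, as for 3.31% of all genes tested. Within plate A it was -1.88 (adjusted p = 0.278) and within plate B -1.67 (adjusted p = 0.0832), so the direction was the same on each plate and neither passed alone. The sign of the 2c term again holds only as far as the 2c labels do.

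Cd81, a second egg tetraspanin, lies on the plus strand of chromosome 7 from 150238655 to 150253835 and was barely detected. WT oocytes held 24 counts in 8 of 16 libraries and KO oocytes 15 in 6 of 14. At 2c there were 0 counts in WT and 1 in matPlag1KO embryos, and at 8c there were 2 and 2. The highest library, a WT oocyte, had 17.4 CPM, the medians were 0.755 CPM in WT oocytes and 0 in the other 5 groups, and all groups overlapped. The neighbours in the order of means (WT oocytes, KO oocytes, 8c matPlag1KO, 2c matPlag1KO, 8c WT, 2c WT) did not differ beyond their spread. Per spike-in count, WT oocytes were at least 3.9-fold above WT 2c embryos, by the lower limit of the counting interval. The oocyte level was 12.8-fold the 8c level in WT (3.19 to 112). In KO it was 11.5-fold the 2c level (1.76 to 483) and 5.61-fold the 8c level (1.3 to 50.6). Such intervals cover counting error only. The opposite-strand gene R74862 overlaps Cd81 and had 33 counts in all against 44 for Cd81. The genotype difference was not detectable at this depth at any stage.

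Astl encodes ovastacin and spans 127164375 to 127183391 on the plus strand of chromosome 2. Its lowest, median and highest levels in oocytes were 2.91, 55.4 and 421 CPM in WT and 27.6, 194 and 811 CPM in KO. At 2c they were 0, 11.3 and 38.9 CPM in WT and 0, 18.5 and 32.3 CPM in matPlag1KO embryos. At 8c they were 0, 0 and 9.92 CPM in WT and 0, 3.25 and 13.9 CPM in matPlag1KO embryos. Oocytes were high with a broad spread, later stages were low, and the genotypes overlapped at every stage. The means ran from KO oocytes (250.2 ± 204 CPM, n = 14) and WT oocytes (131 ± 132, n = 16) through 2c matPlag1KO and 2c WT to 8c matPlag1KO and 8c WT. No neighbours in this order differed beyond the larger SD.

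Astl fell from MII to 2c, with a log2 fold change of -5.48 ± 0.73 in WT (adjusted p = 6.98e-10, 11 of 11 embryos below the oocyte median) and -5.83 ± 0.75 in KO (adjusted p = 1.55e-10, 11 of 11). From 2c to 8c it fell further in WT, at -2.29 ± 0.79 (adjusted p = 0.0126, 14 of 15 below). That step was -1.48 in plate B alone (adjusted p = 0.152, range 0.00012 to 0.152). In KO it was -1.06 ± 0.78 (adjusted p = 0.26, range 0.0333 to 0.564, 11 of 11 below), and -1.69 with TMM factors, where it passed. The oocyte genotypes differed by 0.90 ± 0.39 (adjusted p = 0.378, range 5.9e-11 to 0.717, the lowest with wells as a block), with 12 of 14 KO oocytes above the WT median. Plates differed in this gene: WT oocytes had a median of 229 CPM on plate A and 27.9 on plate B, against 241 and 167 in KO. On plate B the log2 fold change was 2.21 (adjusted p = 0.00567). At 8c the difference was 1.58 ± 0.79 (adjusted p = 0.346), with 7 of 11 matPlag1KO embryos above a WT median of 0.

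Izumo1r and Astl fell together after MII, and over the 78 libraries their log2 levels had a Pearson r of 0.76, the highest among the 7 genes. Their promoters are shown for that reason. The RefSeq promoter table in build GRCm38.p6 held 5 of the 7 genes: Astl with 2 promoters, Cd81, Cd9, Izumo1r and Trpm7. Itpr1 and Cacna1h had no entry. Each sequence below is the 250 bases before the start of the gene, 5′ to 3′ on the strand of the gene, with CANNTG in capitals, the letters of an E-box. The Izumo1r window is chr9:14903768-14904017 on the minus strand, and those of Astl are chr2:127338389-127338638 and chr2:127341386-127341635 on the plus strand.
Izumo1r: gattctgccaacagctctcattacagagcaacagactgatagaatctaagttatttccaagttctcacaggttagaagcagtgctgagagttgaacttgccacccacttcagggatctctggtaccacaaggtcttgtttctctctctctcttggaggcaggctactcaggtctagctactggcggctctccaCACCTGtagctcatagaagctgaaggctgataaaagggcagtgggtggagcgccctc
Astl, first promoter: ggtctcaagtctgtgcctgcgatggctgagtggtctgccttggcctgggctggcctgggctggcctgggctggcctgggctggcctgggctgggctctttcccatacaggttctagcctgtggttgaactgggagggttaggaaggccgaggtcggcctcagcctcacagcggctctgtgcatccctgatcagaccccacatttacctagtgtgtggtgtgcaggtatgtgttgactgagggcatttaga
Astl, second promoter: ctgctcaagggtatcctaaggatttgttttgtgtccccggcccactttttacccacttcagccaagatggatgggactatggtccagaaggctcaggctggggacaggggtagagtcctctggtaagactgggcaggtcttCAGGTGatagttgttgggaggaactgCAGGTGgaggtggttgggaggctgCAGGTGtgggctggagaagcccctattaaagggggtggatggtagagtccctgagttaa
CANNTG, which reads the same on both strands, occurred 1 time in the Izumo1r window, nearest to the start at base -57. It occurred 3 times in the second Astl window, nearest at -59, and 0 times in the first. Cd9 and Trpm7, which rose after MII in WT, held it too, with 3 (nearest at -25) and 2 (-25), and Cd81, which fell, with 1 (-145), so it does not mark the pair. Of 32536 distinct promoters 66.2% hold it. The letters TATAAA (12.3% of promoters), TAATTA (4.84%), TAATTG (7.18%) and CCAAT (33.8%), searched on both strands, were in none of the 6 windows. A match is a description of letters and not of a bound site.

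Itpr1 encodes the receptor through which the egg's calcium stores empty, and spans 108163090 to 108501110 on the plus strand of chromosome 6. In oocytes its lowest, median and highest levels were 24, 50.1 and 119.6 CPM in WT and 34.0, 68.0 and 178 CPM in KO. At 2c they were 10.9, 31.2 and 67.2 CPM in WT and 7.97, 44.9 and 78.5 CPM in matPlag1KO embryos. At 8c they were 0, 0 and 19.8 CPM in WT and 0, 1.91 and 20.1 CPM in matPlag1KO embryos. All oocyte libraries lay above all 8c libraries of their genotype, 2c embryos overlapped both, and the genotypes overlapped throughout. The means ran from KO oocytes (72.5 ± 34.3 CPM, n = 14) through WT oocytes, 2c matPlag1KO and 2c WT (35.1 ± 19.3, n = 11) to 8c matPlag1KO and 8c WT (2.00 ± 5.07, n = 15). The step from 2c WT to 8c matPlag1KO was the only one beyond the larger SD.

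Per spike-in count Itpr1 fell at both steps. From MII to 2c the log2 fold change was -2.49 ± 0.52 in WT (adjusted p = 2.27e-05, 11 of 11 below the oocyte median) and -2.60 ± 0.52 in KO (adjusted p = 1.23e-05, 11 of 11). With TMM factors the same step was -0.61 in WT (adjusted p = 0.175, range 2.14e-07 to 0.175) and -0.76 in KO (adjusted p = 0.0923, range 7.04e-08 to 0.0923), neither past the test. From 2c to 8c it was -3.11 ± 0.58 in WT (adjusted p = 4.32e-06, 14 of 15 below the 2c median) and -2.72 ± 0.61 in KO (adjusted p = 0.000142, 11 of 11). Between genotypes at 8c the difference was 0.86 ± 0.59 (adjusted p = 0.548, 6 of 11 above a WT median of 0) on 12 and 14 counts. Without the 4 libraries of wells E3 and F5, chosen after seeing the data, it was 2.22 (adjusted p = 0.0478, range 0.0478 to 0.939) on 4 and 13 counts, and on plate B alone it was -0.51.

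Trpm7, a cation channel with a kinase domain, is encoded on chromosome 2, minus strand, 126617294 to 126701997. In oocytes its lowest, median and highest levels were 0, 1.13 and 12.1 CPM in WT and 0, 2.03 and 10.6 CPM in KO. At 2c they were 7.07, 40.2 and 69.3 CPM in WT and 7.97, 36.7 and 87.0 CPM in matPlag1KO embryos. At 8c they were 2.10, 11.9 and 32.5 CPM in WT and 2.68, 12.7 and 46.7 CPM in matPlag1KO embryos. Its highest levels were thus at 2c, and the genotypes overlapped at each stage. The means ran from 2c WT (43.3 ± 21.8 CPM, n = 11) through 2c matPlag1KO, 8c matPlag1KO and 8c WT to KO oocytes and WT oocytes (3.34 ± 4.38, n = 16), and only 8c WT and KO oocytes differed beyond the larger SD. From MII to 2c Trpm7 rose by 1.81 ± 0.56 in WT (adjusted p = 0.0036, 11 of 11 above the oocyte median) and 1.31 ± 0.58 in KO (adjusted p = 0.0401, 10 of 11). Within plates the WT step was 1.63 on plate A (adjusted p = 0.0991, range 2.76e-09 to 0.0991). The KO step was 1.41 on plate A (adjusted p = 0.161) and 1.23 on plate B (adjusted p = 0.176), in a range of 7.22e-08 to 0.176. The next step was -0.65 ± 0.55 in WT (adjusted p = 0.331, 12 of 15 below) and -0.21 ± 0.60 in KO (adjusted p = 0.802, 8 of 11 below). With TMM factors these were -1.63 (adjusted p = 0.00194, range 0.00194 to 0.697) and -1.18 (adjusted p = 0.0427, range 0.0427 to 0.927), past the test.

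Cd9 and Trpm7 were the members that rose after MII in WT, and their upstream windows are shown with GGGCGG in capitals in Cd9 and CACGTG in Trpm7. They are chr6:125494761-125495010 and chr2:126876262-126876511, both on the minus strand.
Cd9: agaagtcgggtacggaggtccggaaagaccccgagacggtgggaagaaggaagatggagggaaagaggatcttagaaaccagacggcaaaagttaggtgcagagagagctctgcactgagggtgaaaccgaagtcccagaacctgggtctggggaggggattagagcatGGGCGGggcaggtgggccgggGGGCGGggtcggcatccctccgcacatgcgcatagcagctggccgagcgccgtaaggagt
Trpm7: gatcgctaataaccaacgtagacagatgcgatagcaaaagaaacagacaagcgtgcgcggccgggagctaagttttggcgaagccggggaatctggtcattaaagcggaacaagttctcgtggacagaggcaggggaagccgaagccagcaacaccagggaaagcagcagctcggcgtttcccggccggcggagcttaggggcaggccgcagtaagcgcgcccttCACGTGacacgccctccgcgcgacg
GGGCGG, searched on both strands, occurred 2 times in the Cd9 window, nearest to the start at -60, and 3 times in that of Cd81. It was in 33.0% of all promoters. CACGTG, a form of CANNTG, occurred 1 time in the Trpm7 window at -25 and in 6.04% of all promoters. The pair of letters CG occurred 26 times in the Trpm7 window and 16 times in each of Cd9 and Cd81, against 4 and 1 in the Astl windows, 2 in that of Izumo1r and a median of 6 over all promoters.

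Cacna1h encodes a T-type calcium channel and spans 25511232 to 25570728 on the minus strand of chromosome 17. In oocytes its lowest, median and highest levels were 0, 21.1 and 112 CPM in WT and 3.68, 23.6 and 97.6 CPM in KO. At 2c they were 0, 27.3 and 57.5 CPM in WT and 0, 36.9 and 89.3 CPM in matPlag1KO embryos. At 8c they were 0, 2.23 and 15.3 CPM in WT and 0, 3.17 and 26.7 CPM in matPlag1KO embryos. Median CPM was lowest at 8c, all groups overlapped, and no neighbours in the order of means differed beyond the larger SD. Per spike-in count Cacna1h fell from MII to 2c, with a log2 fold change of -2.69 ± 0.71 in WT (adjusted p = 0.000652, 9 of 11 below the oocyte median) and -1.77 ± 0.67 in KO (adjusted p = 0.0179, 9 of 11). With TMM factors these became -0.55 (adjusted p = 0.404, range 0.000174 to 0.404) and 0.28 (adjusted p = 0.689, range 0.00509 to 0.695), so the KO step turned its direction. From 2c to 8c it did not pass, at -1.05 ± 0.71 in WT (adjusted p = 0.218, range 0.00355 to 0.423, 12 of 15 below the 2c median) and -1.65 ± 0.75 in KO (adjusted p = 0.0605, range 0.000632 to 0.2, 10 of 11). With TMM factors it passed, at -1.98 in WT and -2.41 in KO. Opposite-strand Tpsg1 overlaps Cacna1h with 16 counts in all against 1150, and Mir7661 overlaps Itpr1 on the same strand with 0.

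**Figure D2:**
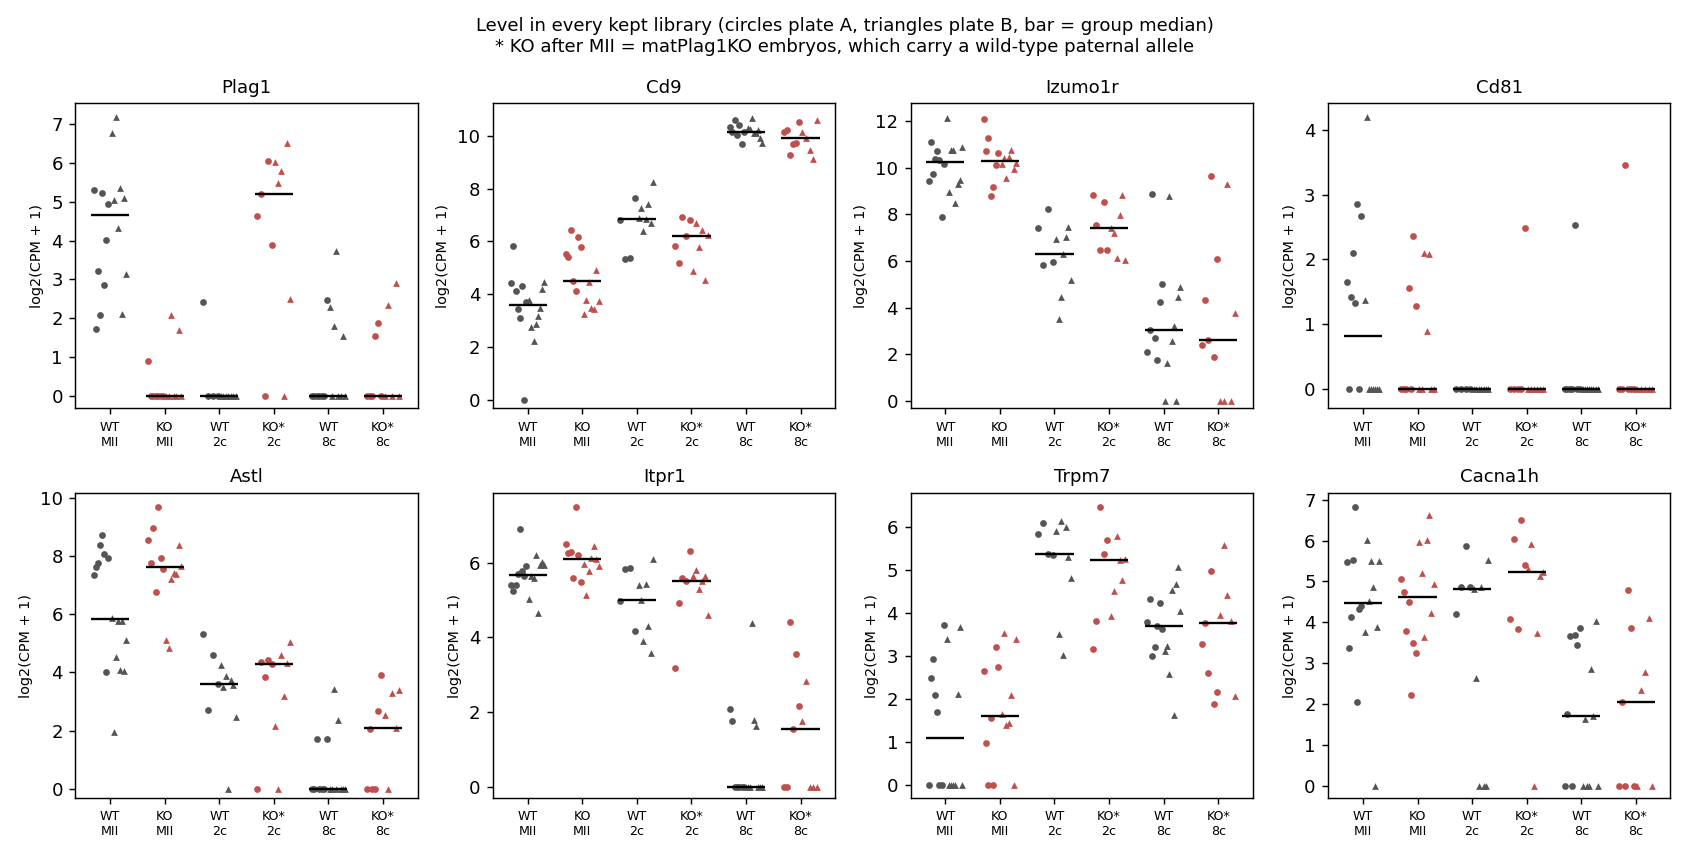
Level of Plag1 and of the 7 genes in each of the 78 kept libraries, as log2 of CPM plus 1, by group; circles are plate A, triangles plate B and bars group medians. Cd9 is highest at 8c, Trpm7 at 2c, and Izumo1r, Astl and Itpr1 at MII.

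Counted over the 7 genes on the spike-in scale, most were called from MII to 2c and from MII to 8c, and fewer from 2c to 8c. Among WT groups the MII to 2c step raised 2 (Cd9, Trpm7) and lowered 5, where 14.1% of all genes tested were raised and 51.3% lowered. The 2c to 8c step raised 1 (Cd9) and lowered 2 (Astl, Itpr1), against 31.9% and 16.2% of all genes. Over MII to 8c 2 were raised (Cd9, Trpm7) and 5 lowered, against 27.1% and 43.6%. Of these, Trpm7 (log2 fold change 1.16, adjusted p = 0.0437) was called in 8 of 11 alternatives. The KO groups gave 1 raised (Trpm7) and 5 lowered at the first step, against 13.5% and 50.3%. The second step gave 1 raised (Cd9) and 1 lowered (Itpr1), against 29.1% and 19.5%. Over MII to 8c 1 was raised (Cd9) and 5 lowered, against 24.1% and 45.2%. Among the 5, Cd81 (log2 fold change -1.84, adjusted p = 0.0457) was called in 1 of 9 alternatives. With TMM factors the MII to 2c step raised 2 and lowered 3 in WT (27.5% and 23.1% of all genes) and 2 and 2 in KO (29.1% and 19.3%). The 2c to 8c step then raised 1 and lowered 4 in each genotype (21% and 28.9% of all genes in WT, 21.2% and 30.3% in KO). On the spike-in scale a fall after MII was thus common among all genes and is not particular to these 7, and the tally depends on the scaling.

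**Figure D3:**
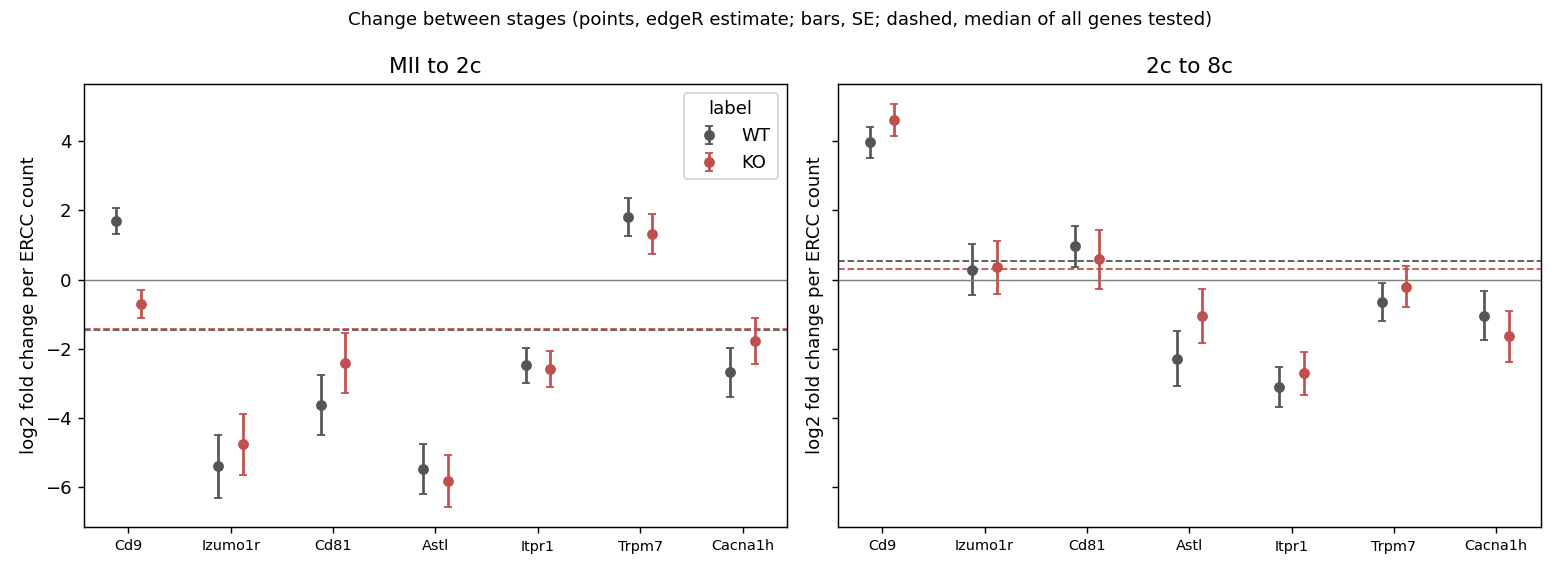
Log2 fold change per spike-in count from MII to 2c (left) and from 2c to 8c (right) for each of the 7 genes, by genotype label; points are edgeR estimates, bars SE, and dashed lines the median of all genes tested. Cd9 from 2c to 8c is far above that median, at 3.97 in WT.

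Between genotypes edgeR called 0 of the 7 at MII, where 0.781% of all genes passed, 0 at 2c (4.92%) and 0 at 8c (1.74%). At an unadjusted p under 0.05 there were 2 at MII (Cd9 and Astl), 1 at 2c (Cd9) and 1 at 8c (Astl). The shares of all genes at that limit were 10.2% at MII, 20.5% at 2c and 14.3% at 8c. DESeq2 called 1, 1 and 0, against 0.616%, 9.07% and 3.32% of all genes. The edgeR likelihood ratio test called 1, 0 and 0, against 0.587%, 5.47% and 1.93%. The genotype difference itself changed from MII to 2c in 1 member (Cd9), as given above. From 2c to 8c edgeR found 0, against 2.3% of all genes, and 0 at an unadjusted p under 0.05, against 17.9%. DESeq2 and the likelihood ratio test also called 0, against 5.97% and 2.97%. With a spike-in library size the median of all genes shifted between genotypes by 0.30 at MII and 0.28 at 2c. Genotype differences of these genes are not shown to be absent.

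**Figure D4:**
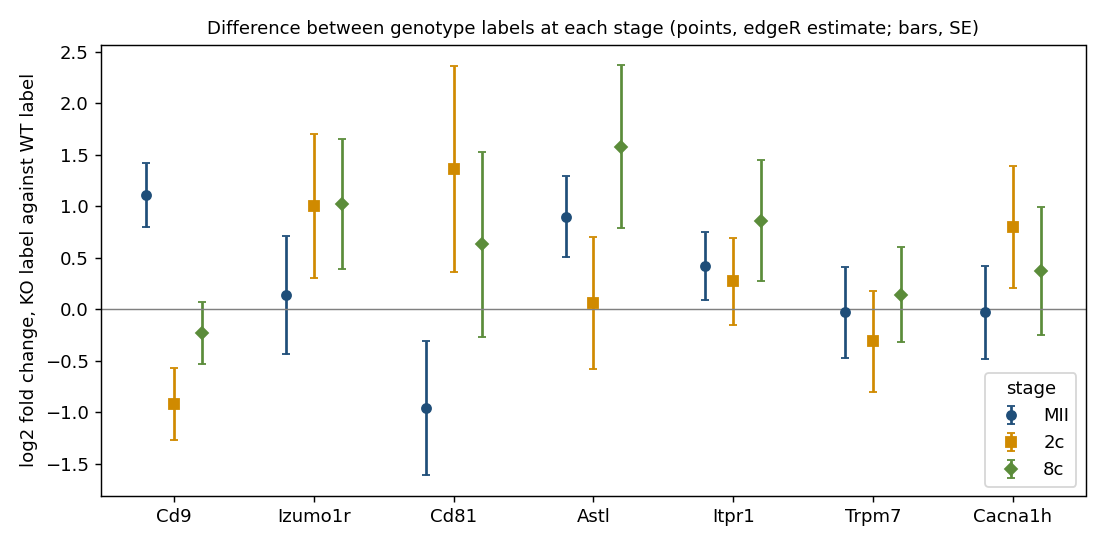
Log2 fold change between the KO and WT labels at each stage for the 7 genes; points are edgeR estimates and bars SE. Cd9 lies at 1.11 at MII and -0.92 at 2c, and no point passed the test.

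The genes whose levels followed each member most closely were named by Pearson r of log2 levels over the 78 libraries, among 10840 genes. These libraries share stage, so r mostly orders genes by their course over the stages. For Cd9 they were Rpl27, Rps24 and Fau (r = 0.96 each), for Izumo1r Gm5434 (0.89), Arhgap20os (0.88) and Nobox (0.88), and for Astl Gm6981 (0.88), H1foo (0.87) and Etv1 (0.86). For Itpr1 they were Tgds, Eif4e3 and Slc25a15 (0.90 each), for Trpm7 Zfp707 (0.83), Sesn2 and Slc34a2 (0.79 each), and for Cacna1h Kmt2d (0.75), Smad3 (0.74) and Cic (0.72). Among the members Cd9 ran against Itpr1 (r = -0.83) and Izumo1r (-0.76), and Astl ran with Itpr1 (0.73).

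The wider pathway was read from lists of 97 genes, 96 of them measured and 88 tested. The first step in WT, MII to 2c, raised 4 and lowered 57 (69.3% past the test, against 65.4% of all genes), with a median log2 fold change of -2.42 against -1.46 for all genes, while KO had 5 raised and 54 lowered (67% against 63.8%). The 2c to 8c step raised 23 and lowered 21 in WT (50% against 48.1%), and raised 13 and lowered 25 in KO (43.2% against 48.6%). Over MII to 8c 17 were raised and 50 lowered in WT (76.1% against 70.7%), and 11 and 53 in KO (72.7% against 69.3%). The shares past the test lay near those of all genes. At the first step 64.8% were lowered in WT against 51.3% of all genes, and 61.4% in KO against 50.3%, without a test of the difference. With TMM factors that step raised 12 and lowered 34 in WT (13.6% and 38.6%, against 27.5% and 23.1% of all genes), and raised 16 and lowered 19 in KO (18.2% and 21.6%, against 29.1% and 19.3%). For 2c to 8c they gave 15 raised and 34 lowered in WT (17% and 38.6%, against 21% and 28.9%), and 9 and 38 in KO (10.2% and 43.2%, against 21.2% and 30.3%).

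The zona pellucida genes, which encode the egg's coat, fell from MII to 2c as 3 of 3 in WT. Zp1 went from a mean of 644 ± 618 CPM in WT oocytes (n = 16) to 90.4 ± 50.1 at 2c (n = 11), a log2 fold change of -5.09 (adjusted p = 5.16e-09), Zp3 one of -3.43 (adjusted p = 5.77e-07) and Zp2 one of -2.68 (adjusted p = 1.95e-07). Zp2 and Zp3 fell again after 2c in WT, by -3.30 (adjusted p = 8.46e-09) and -1.66 (adjusted p = 0.00767). Of 12 egg adhesion and fusion partners 8 fell from MII to 2c in WT and 1 rose. Itga9, an integrin subunit, fell from 583 ± 292 CPM in WT oocytes to 134 ± 75.8 at 2c (9.0 ± 7.42 at 8c, n = 15). Cd55, a complement regulator (-3.84, adjusted p = 4.47e-10), and Itga6 (-3.16, adjusted p = 8.41e-07) fell too. Of 15 tested genes for cortical granule release 11 fell at the same step. Syt1, a calcium sensor of vesicle fusion, fell from 960.2 ± 806 CPM in WT oocytes to 129 ± 72.3 at 2c (9.75 ± 8.07 at 8c). Nsf, an ATPase of vesicle traffic, fell too (-3.88, adjusted p = 2.19e-10). Beside these counts, 51.3% of all genes tested fell at that step. After 2c in WT 5 adhesion and fusion partners rose and 1 fell, where 31.9% of all genes rose and 16.2% fell.

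Of 26 genes for calcium release, entry and clearance the MII to 2c step in WT lowered 17 and raised 2. Beside this and the list counts below, that step lowered 51.3% and raised 14.1% of all genes tested. Itpr2, a second inositol trisphosphate receptor, was at -6.51 on the log2 scale (adjusted p = 8.59e-21) and Mcu, the mitochondrial calcium uniporter, at -2.85 (adjusted p = 1.54e-08). Gnaq, a G protein subunit, went the way of Cd9, rising from 2c to 8c by 3.61 in WT (adjusted p = 4.03e-11) and 4.21 in KO (adjusted p = 1.12e-12). Of 22 calcium targets 13 fell and 1 rose. Calm2, a calmodulin gene, did not pass at 0.33 in WT (adjusted p = 0.536). Mapk3, a MAP kinase, was at -2.71 for the same step (adjusted p = 1.08e-05) and at -4.56 for the next (adjusted p = 1.09e-10). Of 5 zinc transporters 3 fell (Slc39a6, Slc39a10, Slc30a3). Of 5 tested sperm-side genes 2 fell (4930451I11Rik and Prm2). Prm2, a sperm protamine, had a mean of 16.0 CPM in WT oocytes, from unmated females by the labels, 3.93 at 2c and 0 at 8c. Adam2 had means of 0.104, 1.92 and 2.15 CPM in WT and 0, 5.89 and 2.74 in KO at MII, 2c and 8c. Its MII to 2c step was 1.49 in WT (adjusted p = 0.0887) and 3.40 in KO (adjusted p = 0.000193). These steps rest on 1 count at MII and 4 at 2c in WT, and on 0 and 13 in KO.

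**Figure D5:**
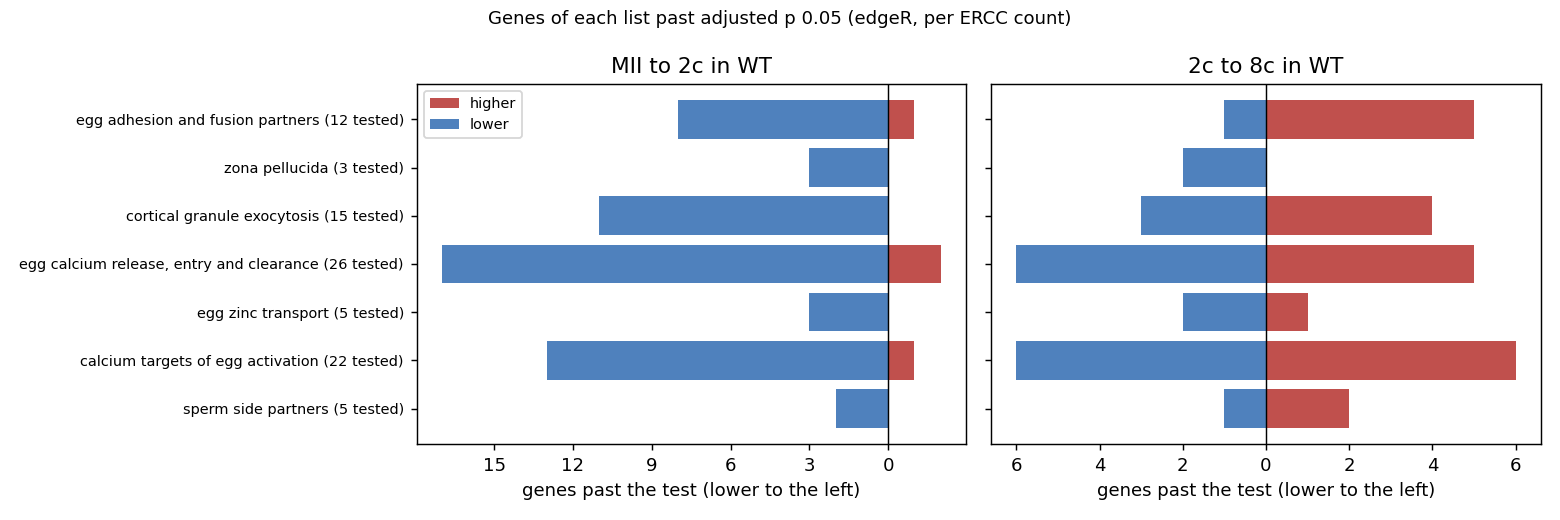
Number of genes in each pathway list that passed the edgeR test in WT, to the right where higher and to the left where lower, for MII to 2c and for 2c to 8c. From MII to 2c each list has more genes to the left than to the right.

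Between genotypes, 2 of the 88 listed genes were higher in KO oocytes and 0 lower (2.27% against 0.781% of all genes), 0 passed at 2c (against 4.92%), and at 8c 3 were higher and 1 lower (4.55% against 1.74%). At 2c, where edgeR found 0, 21 had an unadjusted p under 0.05 (23.9% against 20.5% of all genes). The edgeR likelihood ratio test called 2 (Mcu and Slc30a7, 2.27% against 5.47%) and DESeq2 6 of 63 (Gnaq, Mcu, Orai1, Prkcd, Slc30a7 and Snap23, 3 higher and 3 lower, 9.52% against 9.07%). The genotype difference changed from MII to 2c in 2 listed genes (2.27% against 3.31%), higher for Camk2d and lower for Padi6 (-1.74 ± 0.48, adjusted p = 0.0262), and after 2c in 1 (1.14% against 2.3%), Zp1 (-2.78 ± 0.79, adjusted p = 0.0372). For the first of these changes DESeq2 called 2 of 56 (Calm2 and Padi6, 3.57% against 6.64% of all genes). The likelihood ratio test called Camk2d and Padi6 (2.27% against 3.82%). For the second DESeq2 called 5 of 59 (Cd55, Itpr2, Prkcd, Snap23 and Zp1, 8.47% against 5.97%). The likelihood ratio test called 3 (Prkcd, Snap23 and Zp1, 3.41% against 2.97%). Padi6, a part of the oocyte's cytoplasmic lattices, had a mean of 1194 ± 646 CPM in WT oocytes and 3562 ± 4064 in KO oocytes, a log2 fold change of 1.58 (adjusted p = 0.000551, range 8.88e-30 to 0.694), with 12 of 14 KO oocytes above the WT median. It was 2.15 on plate A (adjusted p = 0.00157) and 0.35 on plate B (adjusted p = 0.694), so the call came from plate A. The change of the Padi6 difference from MII to 2c was -2.52 on plate A (adjusted p = 0.108) and -0.46 on plate B (adjusted p = 0.747). Camk2b, a subunit of the calcium and calmodulin dependent kinase II, had means of 8.36 and 53.8 CPM and a log2 fold change of 2.68 (adjusted p = 0.000308, range 1.04e-21 to 0.124), with 13 of 14 above. It was 4.01 on plate A and 1.79 on plate B (adjusted p = 0.124). For Padi6 and Camk2b the lowest adjusted p came from the fit with wells as a block, whose criterion for pairing was not met. Otherwise the lowest were 0.000127 for Padi6 (DESeq2) and 1.81e-05 for Camk2b (edgeR on plate A alone).

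At 8c Itpr2 had a mean of 4.71 ± 4.2 CPM in WT and 18.5 ± 15.4 in matPlag1KO embryos, a log2 fold change of 1.89 (adjusted p = 0.00409, range 0.000768 to 0.414), with 10 of 11 above the WT median. Within plates it was 1.62 on A (adjusted p = 0.414) and 2.13 on B (adjusted p = 0.0626). Prkca, a protein kinase C gene, had means of 5.99 and 28.2 CPM and a log2 fold change of 2.21 (adjusted p = 0.0119, range 0.000804 to 0.656), with 11 of 11 above. It was 1.32 on plate A (adjusted p = 0.656) and 3.18 on plate B (adjusted p = 0.0342). Both were higher on each plate. Slc30a3, a zinc transporter gene, rested on well F5, with 132 CPM on plate A and 409 on plate B where no other 8c matPlag1KO library passed 45.5. Its log2 fold change of 3.20 (adjusted p = 0.000905, range 5.22e-05 to 0.738, 8 of 11 above) was 0.63 without wells E3 and F5 (adjusted p = 0.738), and on plate A it was 1.75 (adjusted p = 0.542). Zp1 was lower, at -2.36 (adjusted p = 0.0238, range 0.00409 to 0.287, 10 of 11 below), and -1.62 without those wells (adjusted p = 0.201). Well E3 held the highest WT values, 125 CPM on plate A and 84.3 on plate B. Within plates Zp1 was -2.67 on A (adjusted p = 0.287) and -2.03 on B (adjusted p = 0.228).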

How the data were processed

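The deposited file holds raw counts per gene from single oocytes and embryos. The authors joined reads by molecular identifier, mapped them to mm9 with TopHat and counted them with HOMER over a gene annotation that included 92 ERCC spike-ins. Of 90 libraries 12 were left out for a median under 1 CPM. Genes that reached 1 CPM in 5 or more kept libraries were tested with edgeR 4.0.16 (quasi-likelihood test, R 4.3.3, limma 3.58.1), over the 6 groups and 11 comparisons, with p-values adjusted over all genes tested and called under 0.05. Genotype comparisons came from a fit with TMM-scaled library sizes and stage comparisons from a separate fit with ERCC totals. CPM in the text is TMM-scaled. DESeq2 1.42.0 was an alternative, besides other scalings, filters, plates and the well as a block. Tables and figures used Python 3.11.15, pandas 2.3.3, numpy 2.4.6, scipy 1.17.1 and matplotlib 3.10.9. The fit was tested on simulated data. Between any pair of libraries of a group the chi-square of the counts was at least 3.54 per degree of freedom, so none was a copy. Beyond the 7 members and Plag1, the text names by rule the 3 most abundant genes of each pathway list, every listed gene called between genotypes, and the 3 genes most like each member whose mean reached 10 CPM in some group. A gene that this rule selects is not reported here. Camk2d, Orai1, Prkcd, Slc30a7 and Snap23 were named beyond that rule, after their values were seen. Members and lists were chosen with earlier results of these data known. Counting intervals are at 95% confidence.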

Additional observations from a re-analysis of the deposited data

Results flagged for a closer look

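Each result here stands out because the genotype difference itself changed between stages in an edgeR test of that change. Camk2d, named above, also met this rule from MII to 2c, in the higher direction. For Cd9 the difference moved by a log2 fold change of -2.03 from MII to 2c, from higher to lower in the KO label. This change passed in 9 of 11 alternatives and in neither plate alone. The Cd9 difference itself passed neither at MII (adjusted p = 0.0538) nor at 2c (adjusted p = 0.0965), where it was -0.18 with wells as a block. Only 2 wells of that block held both genotypes. For Padi6 the difference moved by -1.74 from MII to 2c. This change was -2.52 in plate A alone (adjusted p = 0.108) and -0.46 in plate B alone (adjusted p = 0.747). With ERCC library sizes it was -1.64 (adjusted p = 0.145). For Plag1 the difference moved by 11.24 from MII to 2c and by -5.66 from 2c to 8c. The Plag1 difference was -5.64 at MII, 5.59 at 2c and -0.07 at 8c. At 2c, embryos labelled matPlag1KO held 91 counts and WT embryos 1. For Zp1 it moved by -2.78 from 2c to 8c (adjusted p = 0.0372). Without the 8c libraries of wells E3 and F5, chosen after seeing the data, the Zp1 value was -2.02 (adjusted p = 0.144). Every one of these 5 changes, and that of Camk2d, includes the 2c groups and so rests on the 2c labels. The reasons were not tested.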

How the results depend on the processing

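Of 829 log2 fold changes of the 7 genes under the alternatives, 747 kept their direction and their side of the threshold, 19 passed it newly, 28 no longer passed it and 35 turned their sign. Of those 35, 1 was called before (Cacna1h) and 3 were called under the alternative. The cause was not tested for any of them. A DESeq2 value with no adjusted p, not counted in the 35, turned too (Cd81, change of the difference from 2c to 8c, 0.37 against -0.73).

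The number of members called between genotypes at MII was 1 with ERCC library sizes, by DESeq2, by the likelihood ratio test and in plate B, against 0. At 2c it was 1 by DESeq2 and in plate B, against 0. At 8c it was 1 (Itpr1) without wells E3 and F5, against 0, an alternative chosen after seeing the data. For the change of the genotype difference from MII to 2c it was 0 in plate A and 0 in plate B, against 1. With TMM factors between stages 5 were called from 2c to 8c in WT, against 3, and 5 in KO, against 2, while from MII to 2c they gave 5 in WT, against 7, and 4 in KO, against 6. In KO 4 were called from 2c to 8c without E3 and F5 (Izumo1r, for whose level they were left out, among them), and 3 from MII to 2c in plate A, against 6. In WT plate A gave 5 at that step, against 7. Plate B, with 6 tested, gave 5 in WT and 4 in KO from MII to 2c. Without E3 and F5, 4 were called from 2c to 8c in WT, against 3, Izumo1r again among them. From MII to 8c in KO 8 of 11 alternatives gave 5, against 6, and Cd81 was called there in 1 of 9. With the well as a block and plate as a term, 2 were called at MII (Cd9 0.88, adjusted p = 0.0475; Astl 1.18, adjusted p = 5.9e-11), and Trpm7 turned to 0.02. Pairing of wells was checked over 5907 genes: r between paired MII libraries ran from -0.0996 to 0.796 (median 0.393). The criterion for pairing was therefore not met, and the cause was not tested. An earlier check over another set of genes gave a positive lowest r, and the difference is unexplained. At 2c the block could not be fitted over the 2 wells with opposite genotypes, since both had WT on plate A. These 2 also carry the genotype comparison in the block over all 8 wells. Over all 8 wells kept on both plates, a block chosen after seeing the data, 0 were called (6 residual degrees of freedom), with Cd9 at -0.18 against -0.92 and signs turned for Izumo1r (-0.50), Astl (-0.57), Cacna1h (-0.30) and Trpm7 (0.49). The cause was not tested.

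The sign turned, in log2 fold change, as follows. ERCC library sizes at MII gave Trpm7 0.33 and Cacna1h 0.05. DESeq2 size factors gave 0.08 for the Itpr1 change of difference from MII to 2c and -0.01 for that of Izumo1r from 2c to 8c. TMM factors gave Izumo1r -0.60 in WT and -0.58 in KO from 2c to 8c, and Cd9 1.13 and Cacna1h 0.28 in KO from MII to 2c. Keeping shallow libraries gave Astl -0.11 and Itpr1 -0.16 at 2c. Plate as a term gave Cacna1h 0.03 at MII. Plate A gave Astl -0.44 at 2c, Trpm7 -0.21 at 8c and Izumo1r -0.04 from 2c to 8c in WT. Plate B gave Trpm7 0.05, Cacna1h 0.69 and Izumo1r -0.35 at MII, and Itpr1 -0.51 at 8c. For changes of the difference it gave Itpr1 0.12 (2c against MII) and -0.88 (8c against 2c), and Izumo1r -0.25 (8c against 2c). In KO plate B gave Cd9 0.41 from MII to 2c and Trpm7 0.38 from 2c to 8c. Fitting only the groups compared gave Trpm7 0.01 at MII and Izumo1r -0.02 for 8c against 2c. Without E3 and F5, Trpm7 was -0.23 and Cacna1h -0.28 at 8c, and Izumo1r -0.81 for 8c against 2c, -2.32 in WT and -3.71 in KO from 2c to 8c.

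The edgeR test scaled by TMM assumes that most genes do not differ, and the stage steps rest on the spike-in totals. DESeq2 gave Cd81 a fold change but no adjusted p between genotypes. All p-values but those of the block treat libraries as independent, though libraries of the same well were alike and oocytes or embryos shared females and collection days, which the labels do not give. The 2c libraries are the shallowest, and Cd81 is at or under 3 counts in each 2c and 8c group, which limits its comparisons.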
